A study of Mus musculus with 8 samples.

Results

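The CC chemokine receptors Ccr1, Ccr2, Ccr3, Ccr4, Ccr6, Ccr7 and Ccr10, with the atypical receptors Ccrl2 and Ackr2, were examined as a family in mouse cheek skin. They were chosen by gene symbol and make up 9 of the 18901 genes in the table. All 9 had the 10 counts over the 8 mice needed to be tested. RNA was sequenced from 1 library per mouse, from 4 mice of the genotype TBX20fl/fl;K14-Cre and 4 of the genotype TBX20fl/fl, with replicate numbers 1 to 4 in each genotype. Both genotypes carried Tbx20 alleles with loxP sites, and K14-Cre, active in basal keratinocytes, deleted the floxed part in the former, while Cre-negative littermates served as controls. All mice were 7-week-old females that received 10 µg of brain natriuretic peptide (BNP) into the skin of the left cheek, were recorded for 30 min and were euthanised 5 h later. No uninjected or vehicle-treated skin was sequenced, so the comparison shows differences between genotypes after BNP and not a response to BNP.

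Chemokine receptors are G protein-coupled receptors that steer leukocytes along gradients of small secreted proteins, the chemokines. Ccr1, Ccr2 and Ccr3 direct mainly monocytes, neutrophils and eosinophils, whereas Ccr4, Ccr6, Ccr7 and Ccr10 direct lymphocytes and dendritic cells into, within and out of skin. The atypical receptors do not signal for migration: Ackr2 takes up and degrades inflammatory CC chemokines and Ccrl2 presents chemerin at the cell surface. In bulk skin, fewer cells of a type and less RNA per cell cannot be told apart.

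Total counts were 16056282 to 19880654 per mouse, and 3 counts corresponded to 0.140 to 0.254 CPM (counts scaled to a common library size by TMM). TBX20fl/fl mouse 2 stood apart from the rest. Its TMM scaling factor was 0.735, against 1.01 to 1.08 in the other mice, and its median Spearman correlation with the others was 0.919, against 0.974 to 0.990. Many differences are therefore also given without this mouse. Counts of the targeted gene, Tbx20, were 0 to 3 per control and 0 to 2 per TBX20fl/fl;K14-Cre mouse, too few to detect its deletion in whole skin. The skin held keratinocytes, with a summed CPM of their markers of 6954 to 9119 and 7674 to 9538 in the respective genotypes. It also held skeletal muscle (9099 to 17030 and 10400 to 14640) and fat (1648 to 2850 and 1800 to 3723), with overlapping ranges.

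The genes of the family lie on 3 chromosomes (deposited positions, GRCm38). Ccr1 (chr9:123962126-123968692, minus strand), Ccr3 (chr9:124017825-124031692, plus strand) and Ccr2 (chr9:124101918-124109140, plus strand) lie in 1 stretch of chromosome 9, with Ccr1l1 between Ccr1 and Ccr3. Ccrl2 (chr9:111054834-111057518, minus), Ccr4 (chr9:114490316-114505476, minus) and Ackr2 (chr9:121898355-121911075, plus) lie elsewhere on the same chromosome. Ccr7 (chr11:99144199-99155077, minus) and Ccr10 (chr11:101172998-101175443, minus) are on chromosome 11, and Ccr6 (chr17:8236041-8258519, plus) is on chromosome 17. No exon of the 9 genes overlapped an exon of another gene in the GENCODE annotation. Of 6758 stretches of 50 bases, the read length, in Ccr2 transcripts, 129 (1.91%) also occurred in transcripts of other genes. For Ccr4 it was 0.465%, and for the other 7 genes it was 0.

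Because TBX20 is a T-box factor, the 250 bases before each RefSeq start (GRCm38.p6) were searched on both strands for the T-box core AGGTGT. They were also searched for GAGGAA, the core bound by the myeloid factor PU.1. RefSeq windows were at hand for 7 of the 9 genes (10 windows), and the windows below show the Ccr1 start, the gene with the largest difference between genotypes in the fit to all mice, and the Ackr2 start, the single window with the T-box core. Each is printed 5′ to 3′ on the strand of the gene with the matched core in capitals.
Ccr1 (chr9:123968693-123968942, minus strand): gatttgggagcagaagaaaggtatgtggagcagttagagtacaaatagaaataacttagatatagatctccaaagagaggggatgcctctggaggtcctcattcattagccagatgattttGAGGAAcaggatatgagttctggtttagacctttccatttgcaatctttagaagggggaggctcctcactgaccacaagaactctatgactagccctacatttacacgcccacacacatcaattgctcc
Ackr2 (chr9:121898105-121898354, plus strand): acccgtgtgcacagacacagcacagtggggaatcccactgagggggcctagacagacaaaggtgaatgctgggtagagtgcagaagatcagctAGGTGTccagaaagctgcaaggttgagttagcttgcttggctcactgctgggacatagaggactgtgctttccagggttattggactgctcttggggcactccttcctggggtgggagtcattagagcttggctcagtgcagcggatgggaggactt
The capitals in the Ccr1 window mark the PU.1 core, which began 129 bases before the start. In the Ackr2 window they mark the T-box core, 157 bases before the start. The T-box core was in 1 of the 10 windows of the family, and in 11.8% of all 32851 windows of this length. The PU.1 core was in 3 of the 10 (Ccr1, Ccr3 and 1 of the Ccr6 windows) and in 23.3% of all windows. The cores do not overlap in these windows. A match describes the letters only.

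The family spanned a wide range of levels in skin, with the same order of mean FPKM in both genotypes. On the FPKM scale, which is per transcript length, the mean was 57.2 ± 16.4 (SD, n = 4) for Ccr2 and 19.3 ± 7.77 for Ccr1 in TBX20fl/fl mice. Ccrl2 (11.5 ± 3.08), Ackr2 (4.74 ± 1.52), Ccr3 (4.48 ± 1.27) and Ccr4 (1.68 ± 0.665) followed. Ccr7 (1.01 ± 0.203), Ccr6 (0.688 ± 0.280) and Ccr10 (0.253 ± 0.219) were lowest. Between neighbours in this order, the ranges of TBX20fl/fl mice were apart for Ccr2 and Ccr1, for Ccrl2 and Ackr2, and for Ccr3 and Ccr4, and overlapped for the other pairs. In TBX20fl/fl;K14-Cre mice the ranges were apart for Ccr2 and Ccr1, Ackr2 and Ccr3, Ccr4 and Ccr7, and Ccr6 and Ccr10. In these mice Ccr7 had the higher mean (0.73, with 0.71 for Ccr6) but was above Ccr6 in 1 of the 4 only. Ccr2 alone made up 47.7 to 63.5% of the summed FPKM of the 9 genes in TBX20fl/fl mice and 54.3 to 64.1% in TBX20fl/fl;K14-Cre mice. The sum itself was 74.5 to 118.4 and 56.9 to 85.3 FPKM, respectively, with overlapping ranges (two-sided exact permutation p = 0.0857).

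**Figure D1:**
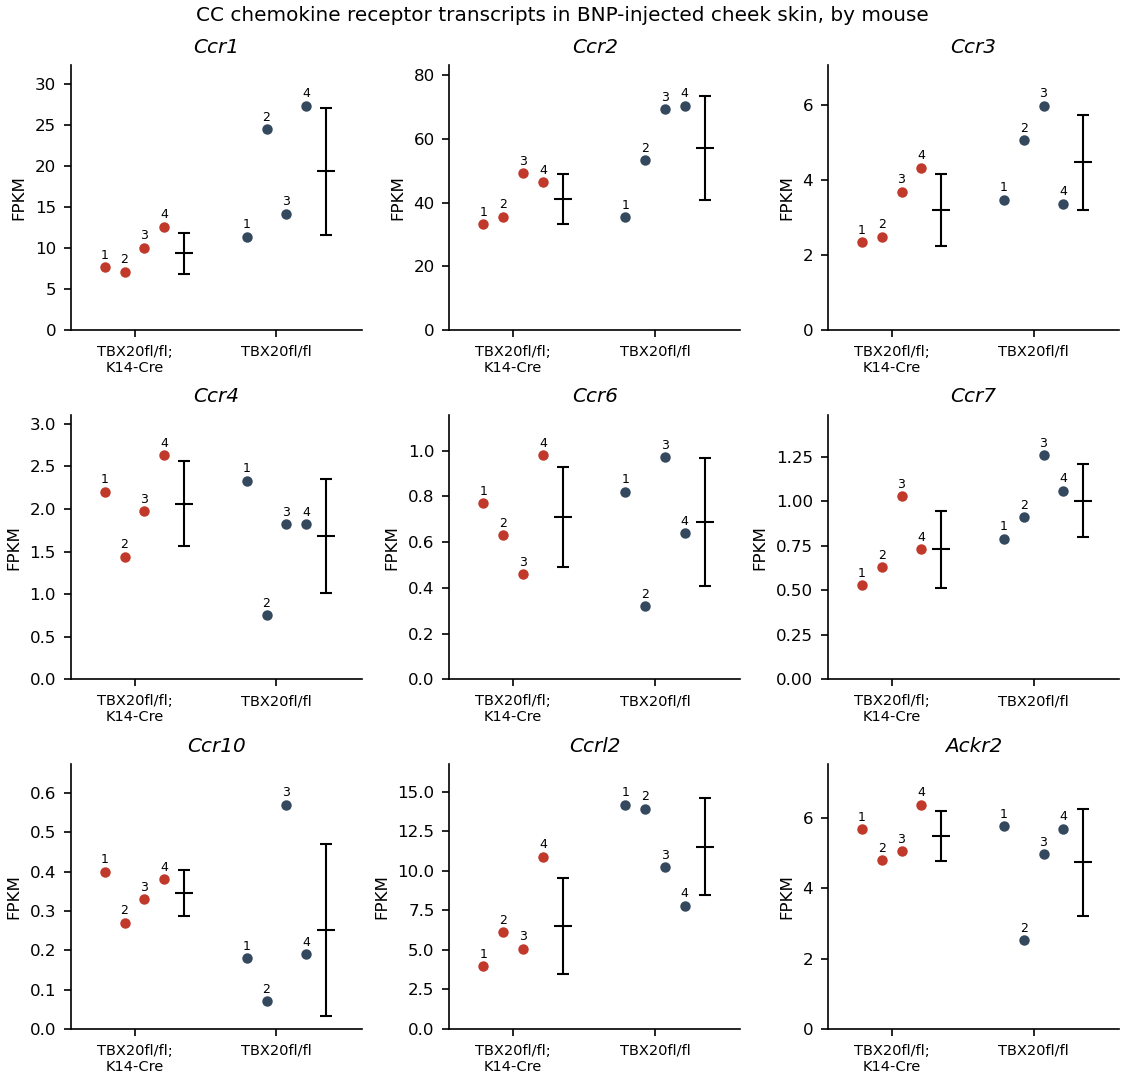
FPKM of each receptor (y axes, from 0, each with its own scale) in 4 mice of TBX20fl/fl;K14-Cre (red) and 4 of TBX20fl/fl (dark blue), with points numbered by replicate number and bars showing mean ± SD. The groups overlapped for all 9 receptors, and TBX20fl/fl mouse 2 was the lowest of its group for Ccr4, Ccr6, Ccr10 and Ackr2.

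The genotypes were compared for each receptor to see whether TBX20 loss in keratinocytes goes with other receptor levels in BNP-injected skin. Mean FPKM was lower in TBX20fl/fl;K14-Cre mice for Ccr1, Ccr2, Ccr3, Ccr7 and Ccrl2, but no receptor passed the test across all genes. With edgeR's quasi-likelihood test and Benjamini-Hochberg adjustment, 0 of 17124 genes had an adjusted p under 0.05 (0%). At an unadjusted p under 0.05 there were 1431 genes, and DESeq2 called 10 genes and limma on FPKM 0 at the adjusted threshold, none of them a receptor of the family. By the unadjusted edgeR p, Ccr1, Ccr2 and Ccrl2 were under 0.05 with a lower level, 3 of the 9, while 5.91% of all genes tested were. None was under 0.05 with a higher level, against 2.45% of all genes. The log2 fold change was below 0 for 6 of the 9, with a median of −0.63 over the family and 0.026 over all genes tested. Without TBX20fl/fl mouse 2, the 3 became 2 (Ccr1 and Ccrl2), and 4.50% of all genes were lower by this rule. No receptor had all 4 TBX20fl/fl;K14-Cre mice below all 4 TBX20fl/fl mice, against 1.92% of the genes whose mean FPKM reached 0.1.

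**Figure D2:**
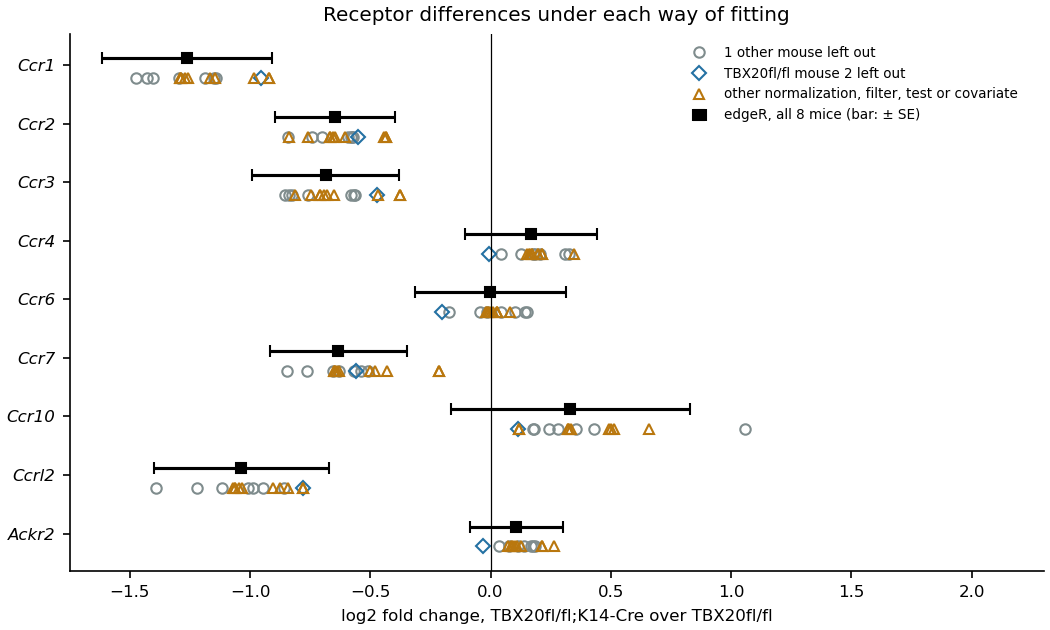
Log2 fold change of each receptor between genotypes (x axis; below 0 is lower in TBX20fl/fl;K14-Cre mice), from the edgeR fit to all 8 mice (squares, ± SE) and from 18 alternative fits (open symbols). Ccr1 stayed between −1.48 and −0.92 in all of them, whereas Ccr4 and Ackr2 crossed 0 when TBX20fl/fl mouse 2 was left out.

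Among the receptors of monocytes and neutrophils, Ccr1, a receptor for Ccl3, Ccl5, Ccl6 and Ccl9, differed most. Its FPKM was 7.65, 7.12, 10.03 and 12.59 in TBX20fl/fl;K14-Cre mice 1 to 4 and 11.36, 24.49, 14.16 and 27.33 in TBX20fl/fl mice 1 to 4. The groups overlapped by 1 mouse on each side, since 3 of the 4 controls lay above every TBX20fl/fl;K14-Cre mouse, and each TBX20fl/fl;K14-Cre mouse lay below the control with its number. The mean was 9.35 ± 2.51 against 19.3 ± 7.77 (two-sided exact permutation p = 0.0571, where 4 against 4 allows 0.0286 at best). The counts gave a log2 fold change of −1.26 ± 0.35 (SE), or 2.40-fold lower (edgeR unadjusted p = 0.00567, adjusted p = 0.498). Without TBX20fl/fl mouse 2 it was −0.96 (edgeR unadjusted p = 0.0115, adjusted p = 0.638), and DESeq2 gave an adjusted p of 0.115 with all mice. The unadjusted p was under 0.05 in 18 of 18 alternative fits.

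Ccr2, the receptor that draws Ly6C-high monocytes from blood to inflamed tissue along Ccl2, Ccl7 and Ccl12, was the most abundant. Its FPKM was 33.33, 35.56, 49.29 and 46.32 in TBX20fl/fl;K14-Cre mice and 35.53, 53.28, 69.39 and 70.46 in TBX20fl/fl mice. TBX20fl/fl mouse 1 lay among the TBX20fl/fl;K14-Cre values and the other 3 controls above them all, and each TBX20fl/fl;K14-Cre mouse lay below the control with its number. Means were 41.1 ± 7.86 and 57.2 ± 16.4 (two-sided exact permutation p = 0.143), and the log2 fold change was −0.65 ± 0.25 (edgeR unadjusted p = 0.0284, adjusted p = 0.498). Without TBX20fl/fl mouse 2 it was −0.55 (edgeR unadjusted p = 0.0504), and the unadjusted p was under 0.05 in 10 of 18 alternatives.

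Markers of neutrophils and monocytes, which carry these receptors, had lower mean sums in TBX20fl/fl;K14-Cre mice too, with overlapping ranges. Neutrophil markers summed to 92.7, 142, 124 and 208 CPM in TBX20fl/fl;K14-Cre mice, against 206, 607, 209 and 527 CPM in the controls. Of the 11 neutrophil markers, 6 had a lower level with an unadjusted edgeR p under 0.05, where 5.91% of all genes did. The lowest log2 fold change was −2.10, for the calprotectin subunit S100a8 (−1.67 without TBX20fl/fl mouse 2), while Mmp9 was at −0.002, Ltf at −0.13 and Camp at 0.57. Among the 6, Ngp (0 to 3 and 1 to 8 counts in the respective genotypes) and Ly6g (2 to 4 and 6 to 9) were near the floor. The paper treats S100a8 and S100a9 as markers of skin damage. Monocyte markers summed to 427 to 580 and 458 to 947 CPM, and 4 of 6 were lower by the same rule, among them Ly6c2 (−2.02). The counts were 6 of 11 and 3 of 6 without TBX20fl/fl mouse 2, where 4.50% of all genes were lower by that rule. Macrophage markers, at 943 to 1488 and 942 to 1408 CPM, had a median log2 fold change of −0.08, with 1 of 8 lower by that rule, and none without that mouse. No marker of these lists had 3 counts or fewer in every mouse. The 2 highest neutrophil sums belonged to TBX20fl/fl mice 2 and 4, which also had the highest Ccr1. The part of these cells in the Ccr1, Ccr2 and Ccrl2 values was not tested.

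**Figure D3:**
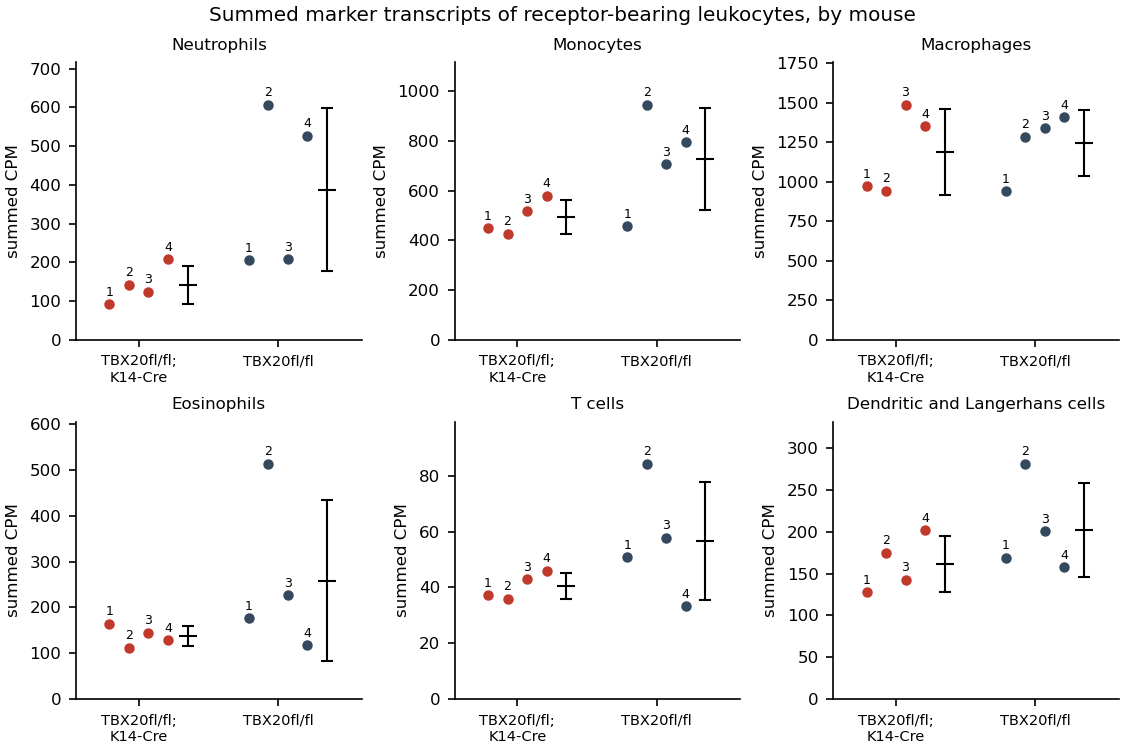
Summed TMM-scaled CPM of marker genes (y axes, from 0) for 6 leukocyte types in 4 mice of TBX20fl/fl;K14-Cre (red) and 4 of TBX20fl/fl (dark blue), with points numbered by replicate number and bars showing mean ± SD. The groups overlap in each panel, and TBX20fl/fl mouse 2 is the highest mouse for every type shown except macrophages.

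Ccr3, the eotaxin receptor of eosinophils, which answers Ccl11 and Ccl24, had an FPKM of 2.34, 2.49, 3.69 and 4.33 in TBX20fl/fl;K14-Cre mice. In TBX20fl/fl mice it was 3.48, 5.06, 5.99 and 3.37. The groups overlapped, with control mice 1 and 4 among the TBX20fl/fl;K14-Cre values. Means were 3.21 ± 0.959 and 4.48 ± 1.27 (two-sided exact permutation p = 0.171), and the log2 fold change was −0.68 ± 0.31 (edgeR unadjusted p = 0.0510, adjusted p = 0.498). It was −0.47 without TBX20fl/fl mouse 2 (edgeR unadjusted p = 0.128). Eosinophil markers summed to 112 to 164 and 117 to 514 CPM, and the highest sum was that of TBX20fl/fl mouse 2. Epx, the defining eosinophil peroxidase, had at most 1 count in any mouse, whereas Siglecf had 69 to 116 and 91 to 123 counts. Of 6 eosinophil markers tested, Prg2 and Ear2 were lower with an unadjusted edgeR p under 0.05, where 5.91% of all genes were. None was without TBX20fl/fl mouse 2, where 4.50% of all genes were. Markers of basophils and mast cells, which can also carry Ccr3, summed to 4.53 to 6.32 and 5.74 to 13.2 CPM and to 532 to 572 and 653 to 1380 CPM. Of 3 basophil markers, Mcpt8 (−2.53) and Cd200r3 (−0.71) were lower by the same rule, and 1, Mcpt8, without TBX20fl/fl mouse 2 (Mcpt8 −2.16, Cd200r3 −0.40). Mcpt8 was near the floor, with 0 to 2 counts per TBX20fl/fl;K14-Cre mouse and 1 to 8 per control, and Prss34 was at 0.11. Of all marker lists examined, the mast cell sums were the only ones in which the genotypes did not overlap. The highest mast cell sum was that of TBX20fl/fl mouse 2, and the other controls had 653 to 746 CPM. Of 6 mast cell markers, 3 were lower with an unadjusted edgeR p under 0.05 (5.91% of all genes), and Kit was at 0.31. Without TBX20fl/fl mouse 2 it was also 3 of 6 (4.50% of all genes), and the median log2 fold change moved from −0.56 to −0.28. The part of these cells in the Ccr3 values was not tested.

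The receptors of lymphocytes and dendritic cells were low, and their differences went both ways. Ccr7, which leads dendritic cells and T cells along Ccl19 and Ccl21 towards lymph nodes, had an FPKM of 0.53, 0.63, 1.03 and 0.73 in TBX20fl/fl;K14-Cre mice. In TBX20fl/fl mice it was 0.79, 0.91, 1.26 and 1.06, from 28 to 46 counts per mouse. Each TBX20fl/fl;K14-Cre mouse lay below the control with its number, though the groups overlapped. Means were 0.730 ± 0.216 and 1.01 ± 0.203 (two-sided exact permutation p = 0.114), with a log2 fold change of −0.63 ± 0.29 (edgeR unadjusted p = 0.0527, adjusted p = 0.498). In the fit paired by replicate number (block) it was −0.65 (edgeR unadjusted p = 0.0361, adjusted p = 0.405). Without TBX20fl/fl mouse 2 it was −0.56 (edgeR unadjusted p = 0.0898), and the unadjusted p was under 0.05 in 5 of 18 alternatives. The dendritic and Langerhans cell markers summed to 128 to 202 and 158 to 282 CPM. Of 9, 1 (Cd207, langerin of Langerhans cells) was lower with an unadjusted edgeR p under 0.05, where 5.91% of all genes were. None was without TBX20fl/fl mouse 2, where 4.50% of all genes were. The part of these cells in the Ccr7 values was not tested.

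Ccr4, the receptor for Ccl17 and Ccl22 on skin-homing T cells, had an FPKM of 2.20, 1.44, 1.97 and 2.63 in TBX20fl/fl;K14-Cre mice and 2.33, 0.75, 1.82 and 1.82 in TBX20fl/fl mice. The lowest value was that of TBX20fl/fl mouse 2, and the others overlapped. The log2 fold change was 0.17 ± 0.27 with all mice (edgeR adjusted p = 0.731) and −0.0061 without that mouse (edgeR adjusted p = 0.994).

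Ccr6, which binds Ccl20 on Langerhans cell precursors and IL-17-producing T cells, had an FPKM of 0.77, 0.63, 0.46 and 0.98 in TBX20fl/fl;K14-Cre mice. In TBX20fl/fl mice it was 0.82, 0.32, 0.97 and 0.64. The groups overlapped almost entirely, from 11 to 53 counts per mouse, and the log2 fold change was −0.0006 ± 0.31 (edgeR adjusted p = 0.999), or −0.20 without TBX20fl/fl mouse 2.

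Ccr10, the receptor for Ccl27 and Ccl28 on skin-resident lymphocytes, was near the limit of detection. Its counts per mouse were 2 to 18 among controls and 9 to 13 with K14-Cre. Its FPKM was 0.40, 0.27, 0.33 and 0.38 against 0.18, 0.07, 0.57 and 0.19. Both the lowest and the highest value belonged to controls. The log2 fold change was 0.33 ± 0.50 with all mice (edgeR adjusted p = 0.711) and 1.06 without TBX20fl/fl mouse 3, the highest (edgeR unadjusted p = 0.0282, adjusted p = 0.609). It was 0.12 without TBX20fl/fl mouse 2. T cell markers summed to 36.0 to 46.0 and 33.3 to 84.3 CPM. Of 8, 1 (Cd3g) was lower with an unadjusted edgeR p under 0.05, where 5.91% of all genes were. None was without TBX20fl/fl mouse 2, where 4.50% of all genes were. B cell markers summed to 0.702 to 1.24 and 0.198 to 2.12 CPM, with none of 4 under that p. The part of lymphocytes in the values of Ccr4, Ccr6 and Ccr10 was not tested.

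Of the atypical receptors, Ccrl2, which binds chemerin and is carried by activated myeloid cells and endothelium, had the lower mean in TBX20fl/fl;K14-Cre mice. Its FPKM was 3.99, 6.13, 5.08 and 10.91 in TBX20fl/fl;K14-Cre mice and 14.20, 13.94, 10.24 and 7.80 in TBX20fl/fl mice. TBX20fl/fl;K14-Cre mouse 4 lay above control mice 3 and 4, whereas the other 3 TBX20fl/fl;K14-Cre mice lay below every control. Means were 6.53 ± 3.05 and 11.5 ± 3.08 (two-sided exact permutation p = 0.0857), and the log2 fold change was −1.04 ± 0.36, or 2.05-fold lower (edgeR unadjusted p = 0.0182, adjusted p = 0.498). It was −0.78 without TBX20fl/fl mouse 2 (edgeR unadjusted p = 0.0461), and the unadjusted p was under 0.05 in 17 of 18 alternatives.

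Ackr2, the scavenger of inflammatory CC chemokines on lymphatic endothelium, had an FPKM of 5.69, 4.80, 5.05 and 6.38 in TBX20fl/fl;K14-Cre mice and 5.77, 2.53, 4.97 and 5.70 in TBX20fl/fl mice. TBX20fl/fl mouse 2 was again the lowest, and the other 7 mice lay between 4.80 and 6.38. The log2 fold change was 0.11 ± 0.19 (edgeR adjusted p = 0.760), and −0.03 without that mouse. Markers of lymphatic endothelium summed to 208 to 305 and 233 to 295 CPM, and none of 5 had an unadjusted edgeR p under 0.05. The part of these cells in the Ackr2 values was not tested.

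The receptors also differed in how they varied from mouse to mouse. Ccr1 and Ccr2 had a Pearson correlation of log2 CPM of 0.87 over the 8 mice and 0.83 without TBX20fl/fl mouse 2. For Ccr4 and Ackr2 it was 0.94 and 0.84, whereas for Ccr1 and Ackr2 it was −0.45 and 0.37. Patterns over the mice were also compared with those of 13297 genes with a mean of at least 50 counts, and the 3 nearest are named for each of the 6 receptors that reached this mean. Nearest to Ccr1 were Msr1, a macrophage scavenger receptor (r = 0.990 over 8 mice and 0.989 without TBX20fl/fl mouse 2), Tspan3 and Bst1. Nearest to Ccr2 were Dnajc25, Alox5ap, which is needed for leukotriene synthesis (0.952 and 0.965), and Pitpna. For Ccr3 they were the class I histocompatibility gene H2-D1, Retnla, a product of alternatively activated macrophages (0.981 and 0.974), and Dok2. For Ccr4 they were Klhl8, Wnt7b, a Wnt ligand made in epidermis (0.974 and 0.943), and Uvrag. Ccrl2 had Trim30c, the DNA exonuclease Trex1 and Gbp2, an interferon-induced GTPase (0.972 and 0.965). Ackr2 had the endothelial genes Nos3 (0.992 and 0.992) and Gja5 (0.996 and 0.985), and Grk3. The mice share genotype and scaling in these correlations, which are descriptions.

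The ligands of these receptors were measured in the same libraries. Of 21 CC chemokine ligands tested, 20 had a log2 fold change below 0 and 15 had a lower level with an unadjusted edgeR p under 0.05, where 5.91% of all genes did. The median was −1.01, and no ligand had an adjusted p under 0.05. Without TBX20fl/fl mouse 2 the 15 became 11 (4.50% of all genes) with a median of −0.62. With a trend of transcript length removed from each mouse, the number was 7 (5.67% of all genes), with a median of −0.42. The same removal gave 4 receptors of the family in place of 3 (Ccr1, Ccr2, Ccr3 and Ccrl2).

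In the fit to all mice the largest difference was that of Ccl4, a chemokine of activated macrophages and T cells, at 17.4 ± 9.95 against 50.9 ± 29.9 FPKM and a log2 fold change of −1.85 ± 0.57 (edgeR unadjusted p = 0.00934, adjusted p = 0.498). For the ligands of Ccr1, log2 fold changes were −1.73 for Ccl3, −1.23 for Ccl5, −1.10 for Ccl6 and −1.01 for Ccl9. The monocyte attractants of Ccr2 were at −1.47 (Ccl2), −1.47 (Ccl7) and −1.26 (Ccl12), and Ccl2 was at 111 ± 45.4 against 251 ± 136 FPKM. Without TBX20fl/fl mouse 2, Ccl4 was at −1.14, Ccl3 at −1.21, Ccl5 at −0.81, Ccl9 at −0.62, Ccl2 at −0.80, Ccl7 at −0.78 and Ccl12 at −0.62. Ccl8, a further CC chemokine, was at −1.06 with all mice and −0.59 without that mouse. The eotaxins of Ccr3 were at −0.94 (Ccl11, edgeR unadjusted p = 0.0270) and −0.67 (Ccl24, edgeR unadjusted p = 0.149). Ccl17 of Ccr4 was at −1.63 but Ccl22, which shares this receptor, at −0.45 (edgeR unadjusted p = 0.0691). Ccl20 of Ccr6 was at −1.14, and Ccl19 and Ccl21a of Ccr7 at −0.89 and −0.90. For Ccr10, Ccl27a was at −0.77 (edgeR unadjusted p = 0.0924), Ccl27b at −0.67 and Ccl28 at 0.75 (edgeR unadjusted p = 0.257). Of these, Ccl11 was at −0.45, Ccl24 at −0.29, Ccl20 at −0.70, Ccl21a at −0.48, Ccl27a at −0.25 and Ccl27b at −0.42 without that mouse. With the length trend removed, Ccl27a was at 0.018 and Ccl27b at −0.046, and 17 of 21 ligands were below 0. Ccl27a with Ccl27b, and Ccl21a, have near-identical copies in the genome between which reads may be divided.

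**Figure D4:**
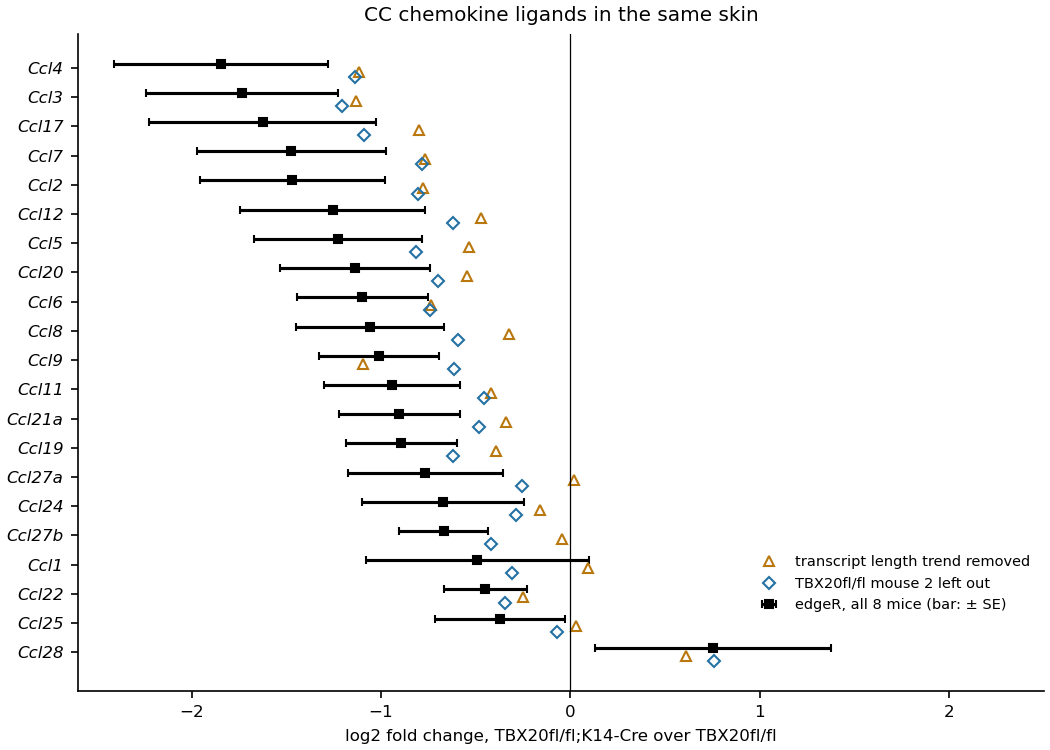
Log2 fold change of 21 CC chemokine ligands between genotypes (x axis; below 0 is lower in TBX20fl/fl;K14-Cre mice), from the edgeR fit to all 8 mice (squares, ± SE), with transcript length trends removed (triangles) and without TBX20fl/fl mouse 2 (diamonds). In the first fit 20 of 21 lie below 0, from −1.85 for Ccl4, and most move towards 0 in the other 2 fits.

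Of 15 other chemokine receptors, 11 had a log2 fold change below 0, and Ccr9, Cxcr2, Cxcr5 and Ackr3 had a lower level with an unadjusted edgeR p under 0.05, where 5.91% of all genes did. These 4 became 1 (4.50% of all genes) without TBX20fl/fl mouse 2, where Ackr3 moved from −0.55 to −0.36, and 1 to 4 over all choices of a mouse to leave out. Cxcr2, the main chemokine receptor of neutrophils, was at 6.35 ± 2.05 against 11.1 ± 4.11 FPKM (log2 fold change −0.96 ± 0.27). Of 22 genes for signalling downstream of chemokine receptors, 13 were below 0, with a median of −0.04. It was 16 with a median of −0.11 without TBX20fl/fl mouse 2, 17 with −0.18 when the length trend was removed, and 7 with 0.13 in limma on log2(FPKM + 1). In that list Rgs1, which ends G protein signalling in leukocytes, was at −1.42 ± 0.36, with 3.49 ± 0.639 against 7.90 ± 2.89 FPKM. It was the 1 gene of the 22 without overlap of the genotypes (two-sided exact permutation p = 0.0286, the lowest that 4 against 4 allows). Of all genes whose mean FPKM reached 0.1, 1.92% were lower without overlap. The GTPase Rac2 (−0.45) and Rgs2 (−0.62) also had a lower level with an unadjusted edgeR p under 0.05, and no gene of this list had an adjusted p under 0.05. These 3 of 22 became 1 of 22 (4.55%, with 4.50% of all genes) without TBX20fl/fl mouse 2, and Rgs2 was at −0.32 and Rgs1 at −0.95. With the length trend removed, 5 of 22 were lower by this rule (22.7%, with 5.67% of all genes).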

How the data were processed

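The authors sequenced RNA of BNP-injected cheek skin as single-end reads of 50 bases, which they filtered with SOAPnuke and aligned with HISAT. The authors deposited estimated counts, which are not normalized, and FPKM values, made with the Dr. Tom platform, for 18901 genes. The counting program is not given in the sources used here. Of the counts above 0, 69.0% were not whole, and all were rounded. Further columns, 16 of other per-mouse units, 51 of the authors' comparisons (fold changes, p-values and q-values) and 40 of group means, were not used.

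The 17124 genes whose counts over all 8 mice summed to 10 or more were compared with edgeR 4.0.16 in R 4.3.3 (TMM scaling, quasi-likelihood test, Benjamini-Hochberg adjustment, threshold 0.05). Standard errors were taken as |log2 fold change| over √F. CPM values are scaled by TMM. FPKM values of single genes were compared by exact permutation (two-sided, all 70 assignments of the mice), and all genes with limma 3.58.1 on log2(FPKM + 1), or + 0.1, as alternatives, with mean FPKM of at least 0.1 or no filter. DESeq2 1.42.0, its size factors, other count filters, a transcript length trend, a replicate block and leaving out each mouse were the other alternatives. The fits were tested on simulated data. Python 3.11.15 with pandas 2.3.3 and scipy 1.17.1 made the summaries. Fold changes on the log2(FPKM + 1) scale understate those of low genes. Floors of 3 counts cover counting error only.

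Each mouse is a separate animal. Deviations of same-numbered mice from their group means correlated at 0.405, 0.319, 0.331 and 0.160 for numbers 1 to 4. The mean for other pairs was −0.0887, and 5 of the 8 mice correlated best with the mouse of their own number. The numbers were therefore taken to pair the mice, although no label says what a number marks. The members, lists and alternatives were chosen with earlier results of these data known. Named are all 9 members, listed genes with an unadjusted p under 0.05, known ligands of a member, and the 3 genes nearest in pattern to each member with a mean of at least 50 counts, ranked by the lower Pearson r of all mice and of those without TBX20fl/fl mouse 2. Marker genes named beside the sums were chosen after their values were seen. One item of the gene lists is not reported here.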

Additional observations from a re-analysis of the deposited data

How the results depend on the processing

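No receptor of the family had an adjusted p under 0.05 in any of 162 values from 18 alternative fits, and 12 of these values changed direction. Over all genes, the DESeq2 Wald test gave 10 genes past the adjusted threshold in place of 0. The 3 receptors with a lower level and an unadjusted p under 0.05 became 5 with DESeq2 size factors in edgeR (6.04% of all genes), and 2 to 5 when 1 mouse was left out. It was 5 without TBX20fl/fl mouse 1, where 10.9% of all genes were lower by this rule, against 3.15 to 9.89% without another mouse. The median log2 fold change of the family was −0.22 in limma on log2(FPKM + 1), with or without the filter, where the median of all genes was 0.116 with it, against 0.026 in edgeR. The number of receptors with no overlap in FPKM was 0 to 2 with 1 mouse left out. It was 2 without TBX20fl/fl;K14-Cre mouse 4 or TBX20fl/fl mouse 1 and 1 without TBX20fl/fl;K14-Cre mouse 3, where 3.49%, 5.21% and 2.47% of all genes, respectively, were lower with no overlap. With the replicate block, which pairs the mice by number, 4 receptors were lower with an unadjusted edgeR p under 0.05, since Ccr7 joined at a log2 fold change of −0.65, against 6.54% of all genes. The block with the length trend gave 3 (6.35% of all genes). No adjusted call changed.

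The differences of Ccr4, Ccr6 and Ackr2 had no stable direction. With 1 mouse left out, log2 fold changes ran from −0.0061 to 0.33 for Ccr4, from −0.20 to 0.15 for Ccr6 and from −0.032 to 0.18 for Ackr2. Ccr6 was at 0.026 in limma with a pseudocount of 1, with or without the filter, 0.082 with 0.1, 0.0005 without a count filter, 0.0275 with the replicate block and 0.0099 with the block and length trend. The difference of its mean FPKM ran from −0.1 to 0.117 with 1 mouse left out. The cause was not tested. There were 4 mice a genotype, and Ccr10 had only 9 to 13 counts per TBX20fl/fl;K14-Cre mouse and 2 to 18 per control. The deletion of Tbx20 could not be checked.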
